A study of Mus musculus with 21 samples.

Results

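The genes described here are the 6 subunits of the MCM helicase (Mcm2, Mcm3, Mcm4, Mcm5, Mcm6 and Mcm7) together with Cdc6, Cdt1, Dbf4 and Pcna, which license, fire or clamp DNA replication. They were chosen by symbol, as all probes annotated to these 10 genes on a mouse bead array, and make up 10 of the 13574 genes that could be tested. The array carried 21 probes for them, of which 18 passed the filter on low signal, and every gene kept at least 1 probe.

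The RNA was from C2C12, a line of mouse myoblasts which, once serum is withdrawn, exits the cell cycle and fuses into multinucleated fibres called myotubes. The 21 arrays formed 7 groups of 3. Untransduced myoblasts (MBs) were taken at day 0 and untransduced myotubes (MTs) at day 6 of differentiation in 2% horse serum. The other 5 groups were day 6 MTs from lentiviral lines selected in puromycin, which carried a control shRNA or an shRNA directed at a nuclear envelope transmembrane protein (NET), namely NET39, TMEM38A, WFS1 or TMEM214. All MTs were kept from contracting with tetrodotoxin and were lifted away from undifferentiated cells by partial trypsinisation, so each MT sample is what that step recovered. The control is a non-target shRNA in the series' design text, whereas the study's legends for the array data name an empty vector. Each knockdown (KD) is represented by a single stable line, so loss of the target and other properties of that line cannot be told apart.

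Licensing takes place in G1, when the origin recognition complex, CDC6 and CDT1 load MCM helicases onto DNA in an inactive form. In S phase the DBF4-dependent kinase and cyclin-dependent kinases turn the loaded helicase on, and PCNA then slides behind the fork as the clamp that tethers DNA polymerases. These genes are known E2F targets in proliferating mammalian cells, and cells that leave the cycle for good, such as differentiating muscle, lose MCM, CDC6 and CDT1.

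RefSeq promoter windows (GRCm38.p6, 250 bases before to 50 after the start of transcription) were matched for 9 of the 10 genes, all but Mcm4, with a pair of windows for Mcm7. Both strands were searched for 4 spellings of the E2F site (TTTCCCGC, TTTCGCGC, TTTGCCGC and TTTGGCGC). Of the 10 windows 6 held at least 1 of these spellings (Mcm3, Mcm5, Mcm6, Mcm7, Cdc6 and Cdt1), where 2.26% of all 32851 windows of the same length did. Those of Mcm3 and Cdt1 lay only after the start. The stretches before the start that held a match are printed first, with the match in capitals, followed by Pcna as an example of a window with none of the 4 spellings, which were also missing from those of Mcm2 and Dbf4.
Mcm5, chr8:75109336-75109455, + strand: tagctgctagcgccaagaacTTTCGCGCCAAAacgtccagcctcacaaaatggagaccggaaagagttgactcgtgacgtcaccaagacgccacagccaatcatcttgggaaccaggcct
Mcm6, chr1:128359706-128359825, - strand: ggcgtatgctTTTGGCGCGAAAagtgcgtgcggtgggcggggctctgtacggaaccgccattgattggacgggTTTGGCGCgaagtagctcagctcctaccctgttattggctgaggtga
Mcm7, chr5:138171949-138172068, - strand: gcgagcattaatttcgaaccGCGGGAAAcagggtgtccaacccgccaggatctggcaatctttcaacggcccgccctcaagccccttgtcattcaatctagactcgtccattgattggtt
Cdc6, chr11:98907993-98908112, + strand: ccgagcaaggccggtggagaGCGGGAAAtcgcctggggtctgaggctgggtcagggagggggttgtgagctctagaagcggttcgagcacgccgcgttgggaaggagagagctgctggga
Pcna, chr2:132253181-132253300, - strand: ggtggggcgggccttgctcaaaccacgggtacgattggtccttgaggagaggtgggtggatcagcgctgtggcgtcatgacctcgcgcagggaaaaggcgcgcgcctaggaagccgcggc
In Mcm5 the match spans positions -153 to -142 from the start and is TTTCGCGC overlapped by the reverse complement of TTTGGCGC. In Mcm6 a TTTGGCGC runs into the reverse complement of TTTCGCGC from -110 to -99, and a further TTTGGCGC lies at -47 to -40. The CCAAT box, found on either strand in 37.4% of all windows, was present in windows of 6 of the 9 genes, and the CHR form TTTGAA, present in 17.9% of all windows, in those of Mcm2 and Dbf4.

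The 15 shRNA arrays were brighter than the 6 untransduced arrays, with mean scanner intensities of 301 to 533 against 172 to 289, and the share of probes above background was 42.6% to 52.8%. In the KD lines the targeted transcripts fell 3.45-fold (Plpp7, the gene of NET39), 21.9-fold (Tmem38a), 18-fold (Wfs1) and 2.25-fold (Tmem214). The 13 myotube markers tested summed to between 4790 and 4920 units of linear intensity on MB arrays and to between 87300 and 146000 on MT arrays, in which all 13 had risen. MB replicate 1 stood apart, with 647 genes more than 1 log2 unit from the mean of MB replicates 2 and 3, where 19 genes differed that much between those replicates. The study's methods give the 3 arrays of a group as biological replicates. The number of arrays limits the precision, and the median SE of a difference between groups was 0.105 on the log2 scale.

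In myogenesis, the comparison of untransduced MTs with MBs, 9 of the 10 genes fell, including all 6 helicase subunits, and for each of the 9 all 3 MT arrays lay below all 3 MB arrays. Mcm5 fell most, 20.5-fold, followed by Mcm4 (9.78-fold), Mcm2 (8.4-fold), Cdt1 (7.53-fold) and Dbf4 (6.93-fold). Pcna alone was not called. Levels are log2 intensities after background correction and quantile normalization, with a background level of 6.01 to 6.11 depending on the array. A call required both a limma p, adjusted over all genes, under 0.05 and a log2 ratio of more than 0.5 in either direction. Of all genes tested 16.4% were called lower and 23% had groups that did not overlap in this direction. The median log2 ratio over the 10 genes was -2.63, against -0.02 over all genes. In bulk RNA fewer cells with a transcript and less of it per cell cannot be told apart.

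Among the helicase subunits, Mcm5 measured 11.45, 11.61 and 11.52 on the MB arrays and 6.85, 7.48 and 7.18 on the MT arrays. The MT replicates differed among themselves by far less than the distance to MBs, and the log2 ratio was -4.36 (SE 0.12, adjusted p = 4.91e-16). Mcm4, which with Mcm6 and Mcm7 forms the catalytic core of the helicase, stood at 11.90, 11.89 and 11.79 in MBs and at 8.21, 8.73 and 8.78 in MTs. Its log2 ratio was -3.29 (SE 0.11, adjusted p = 7.3e-15), with no overlap between the groups. Mcm2, which pairs with Mcm5 at the gate of the ring, measured 9.58, 10.11 and 10.14 in MBs and 6.68, 6.93 and 7.00 in MTs (log2 ratio -3.07, SE 0.12, adjusted p = 6.51e-14). Mcm3 fell by 2.47 and Mcm7 by 1.94 on the log2 scale. In MTs Mcm3 was close to background, above it on 2 of 3 untransduced arrays, so the size of its fall may be understated.

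The loading and firing factors fell alongside. Cdt1, which brings the helicase to the origin, went from 9.84, 10.09 and 10.06 in MBs to 6.91, 7.32 and 7.03 in MTs (log2 ratio -2.91, SE 0.10, adjusted p = 1.69e-14). Dbf4, the activating subunit of the CDC7 kinase, fell by 2.79 on the log2 scale (SE 0.12). Cdc6, the ATPase that helps load the helicase, fell by 2.29 (SE 0.17) to a level above background on 2 of 3 MT arrays. The control shRNA line as the end point gave falls of 2.19 to 4.62 log2 units for these 9 genes.

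Mcm6 and Pcna shared an irregularity in MBs. Mcm6, the helicase subunit that in human cells binds CDT1 during loading, measured 11.18 on MB replicate 1 but 9.10 and 8.93 on replicates 2 and 3, against 7.26, 8.03 and 7.57 in MTs. Pcna measured 9.14 on MB replicate 1 and 6.59 and 6.60 on the others, against 7.77, 7.49 and 7.39 in MTs. On replicate 1 Mcm6 lay 2.17 and Pcna 2.55 log2 units above the mean of the other MB arrays, larger distances than 99.7% and 99.9% of genes showed, while Mcm3, Mcm4 and Mcm5 differed by 0.11 at most. With all arrays Mcm6 fell by 2.12 (SE 0.37, adjusted p = 0.000101) and Pcna differed by 0.11 (95% interval -0.84 to 1.05, adjusted p = 0.877). Without MB replicate 1 the fall of Mcm6 was 1.40, and Pcna was higher in MTs than in MBs, by 0.96 (adjusted p = 0.00163). The direction of Pcna in myogenesis thus rested on single arrays, and it turned to -0.28 under median scaling, -0.32 without MB replicate 2 and -0.31 without MB replicate 3, and without MT replicate 1 the difference was 0.00.

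**Figure D1:**
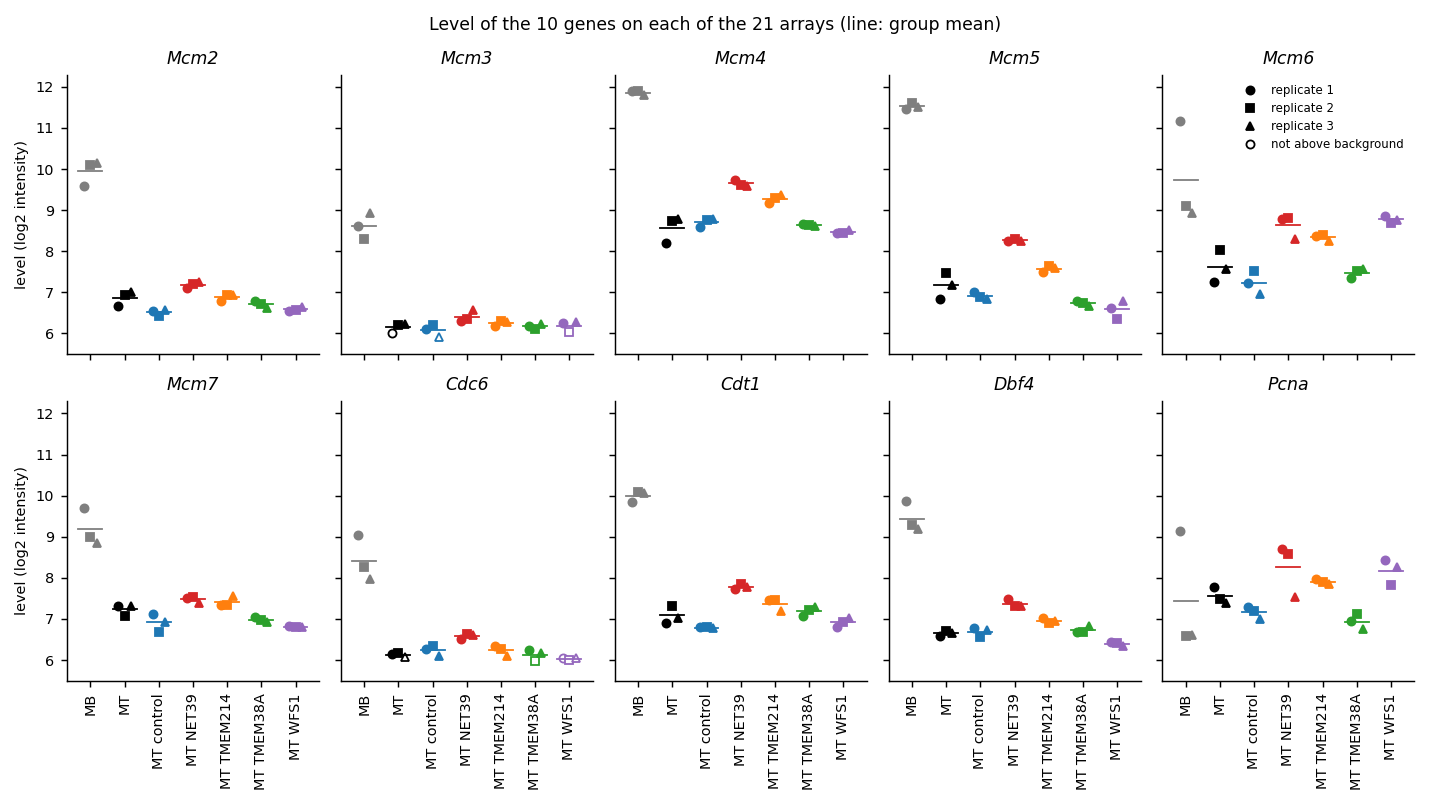
Level of each of the 10 genes on each array (log2 intensity, vertical axis) in the 7 groups (horizontal axis). Points are arrays, with a shape for each replicate number, open where the probe was not above background, and lines are group means. MBs lie above every MT group except for Pcna, and for Mcm6 and Pcna MB replicate 1 lies 2.17 and 2.55 log2 units above the other MB arrays.

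The control shRNA line was compared with untransduced MTs to see whether transduction itself moved these genes. None of the 10 was called in either direction, where 11.5% of all genes were, and by limma without adjustment 3 had p below 0.05. Of these, Mcm2 (log2 ratio -0.36, adjusted p = 0.0385) and Cdt1 (-0.30, adjusted p = 0.0446) missed only the size threshold. Log2 ratios ran from -0.39 to 0.14 with a median of -0.28. Under median scaling, which moves the median of all genes to 0.50 in this comparison, the median of the 10 became 0.43, so no direction is given here. The KD lines were therefore set against the control shRNA line.

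In the NET39 line 7 of the 10 genes rose over the control line, among them 5 of the 6 helicase subunits, where 4.96% of all genes were called higher. The rises were 2.63-fold for Mcm6, 2.56-fold for Mcm5, 1.99-fold for Cdt1, 1.93-fold for Mcm4, 1.61-fold for Dbf4, 1.59-fold for Mcm2 and 1.48-fold for Mcm7. All 10 genes were higher on each of the 3 NET39 arrays than on each of the 3 control arrays, a separation in this direction that 17.2% of all genes showed. The median log2 ratio was 0.81 against -0.02 over all genes. The count ranged from 5 to 8 when single arrays of the 2 groups were left out. Against untransduced MTs it was 4 (Mcm4 1.08, Mcm5 1.10, Cdt1 0.69 and Dbf4 0.73), while Mcm2 (0.31), Mcm6 (1.01) and Mcm7 (0.25) did not pass. The share of all genes called against untransduced MTs was not computed, so this count has no such share beside it.

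Mcm5 measured 8.25, 8.30 and 8.24 on the NET39 arrays and 7.00, 6.88 and 6.85 on the control arrays. The replicates of each group lay close together, and the log2 ratio was 1.36 (SE 0.12, adjusted p = 3.04e-07). Mcm4 measured 9.74, 9.62 and 9.60 against 8.58, 8.77 and 8.78 in the control, a log2 ratio of 0.95 (SE 0.11, adjusted p = 7.02e-06). Mcm2 measured 7.10, 7.21 and 7.25 against 6.55, 6.42 and 6.58 (log2 ratio 0.67, SE 0.12, adjusted p = 0.000584). For these 3 subunits the NET39 and control arrays did not overlap, and both lay below the MB arrays. Mcm2 was not called with the deposited log2 values (0.47) or against untransduced MTs (0.31, adjusted p = 0.0701). On the log2 scale the NET39 line stood at 29.4% of the distance from control MTs to MBs for Mcm5, 30% for Mcm4 and 19.4% for Mcm2. Over the 9 genes that fell in myogenesis it ran from 13.1% for Mcm3 to 55.8% for Mcm6, and for Pcna the distance itself was only 0.28. The MB arrays were untransduced and dimmer before normalization than the control arrays, which limits this measure.

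Cdt1 measured 7.72, 7.84 and 7.77 in the NET39 line against 6.80, 6.80 and 6.77 in the control (log2 ratio 0.99, SE 0.10, adjusted p = 1.83e-06), which is 30.8% of its distance to MBs. Dbf4 measured 7.49, 7.31 and 7.31 against 6.78, 6.56 and 6.72 (log2 ratio 0.68, SE 0.12, adjusted p = 0.000634), 24.9% of the distance. Mcm7 was nearer to the threshold, with 7.52, 7.54 and 7.39 against 7.13, 6.69 and 6.92 (log2 ratio 0.57, adjusted p = 0.0138). It lost its call without control replicate 2 (0.46, adjusted p = 0.0877), NET39 replicate 1 (0.55, adjusted p = 0.0516) or NET39 replicate 2 (0.54, adjusted p = 0.0532). Mcm7 also lost it without background correction (0.46) and under median scaling (0.78, adjusted p = 0.117). The same held with the deposited values (0.43) and the mean of its kept probes (0.44). Cdc6 (log2 ratio 0.36, 95% interval 0.00 to 0.71, adjusted p = 0.182) and Mcm3 (0.33, 95% interval 0.07 to 0.60, adjusted p = 0.0746) did not pass. On the NET39 arrays Cdc6 measured 6.51 to 6.64 and Mcm3 6.30 to 6.57, little above background.

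Mcm6 in the NET39 line measured 8.79, 8.80 and 8.31 against 7.22, 7.52 and 6.97 in the control (log2 ratio 1.39, SE 0.37, adjusted p = 0.0135). It lost its call without control replicate 3 (1.26, adjusted p = 0.0622), NET39 replicate 1 (1.31, adjusted p = 0.056) or NET39 replicate 2 (1.31, adjusted p = 0.054). Pcna in the same line measured 8.70, 8.57 and 7.54 against 7.30, 7.20 and 7.00 in the control. The groups did not overlap for either gene, and for Pcna the log2 ratio of 1.11 did not pass with all 21 arrays in the model (95% interval 0.16 to 2.05, adjusted p = 0.107), but did without NET39 replicate 3 (1.47, adjusted p = 0.0462). The spread that this model assigns to both genes includes MB replicate 1. A model of the 18 MT arrays alone, added after seeing the data, gave the same ratios with an SE of 0.16 in place of 0.37 for Mcm6 (adjusted p = 4.91e-06) and of 0.22 in place of 0.45 for Pcna (adjusted p = 0.000783). In that model 8 of the 10 genes were called higher in the NET39 line, the 7 above and Pcna.

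In the TMEM214 line 4 of the 10 genes rose, Mcm5 by 1.59-fold, Mcm4 by 1.48-fold, Mcm7 by 1.42-fold and Cdt1 by 0.58 on the log2 scale, where 5.19% of all genes were called higher. Ratios of all 10 were above 0, with a median of 0.54, and 8 had groups that did not overlap, as 19.5% of all genes did in this direction. Mcm5 measured 7.49, 7.64 and 7.60 (log2 ratio 0.67, SE 0.12, adjusted p = 0.000693) and Mcm4 measured 9.17, 9.30 and 9.36 (0.57, SE 0.11, adjusted p = 0.00115). These levels lay between those of the control and the NET39 line. Against untransduced MTs Mcm4 alone was called (0.70), with Mcm5 at 0.41, Cdt1 at 0.29 and Mcm7 at 0.18. For this reference too the share of all genes was not computed. Mcm4 also lost its call under median scaling (adjusted p = 0.0535) and with the mean of its probes (0.29), and Cdt1 without background correction (0.46) and with the deposited values (0.44). Mcm7 (0.50, adjusted p = 0.0296) lost its call without control replicate 2 (0.39) or 3 (0.50) and without TMEM214 replicate 1 (0.53), 2 (0.54) or 3 (0.43). It was also not called without background correction (0.40), under median scaling (0.69, adjusted p = 0.179) or with the deposited values (0.38). Nor was it called with the mean of its kept probes (0.31) or with array weights (0.46). Mcm2 (0.37, adjusted p = 0.0404) missed only the size threshold, and Mcm6 (1.10, adjusted p = 0.0507) only the p threshold. With MT arrays alone Mcm6 (adjusted p = 5.86e-05) and Pcna (0.74, adjusted p = 0.0169) were called as well. Cdc6 differed by 0.02 (95% interval -0.34 to 0.37; -0.05 without control replicate 3 and -0.03 without TMEM214 replicate 1), Mcm3 by 0.18 (-0.08 to 0.44) and Dbf4 by 0.27 (0.01 to 0.53).

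In the WFS1 line Mcm6 alone of the 10 genes rose, where 4.19% of all genes were called higher. Mcm6 measured 8.85, 8.70 and 8.77 in the WFS1 line against 7.22, 7.52 and 6.97 in the control, a rise of 2.9-fold (log2 ratio 1.54, SE 0.37, adjusted p = 0.00733). It was not called under median scaling (1.28, adjusted p = 0.0711). Pcna measured 8.43, 7.83 and 8.27 against 7.30, 7.20 and 7.00 (log2 ratio 1.01, 95% interval 0.07 to 1.95, adjusted p = 0.145), and was called with MT arrays alone (adjusted p = 0.00193). The remaining helicase subunits and loading factors differed by -0.31 to 0.13, and none of them was called. Cdc6 was not above background on any of the 3 WFS1 arrays.

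In the TMEM38A line none of the 10 genes was called, where 9.7% of all genes were called in either direction. Cdt1 measured 7.07, 7.22 and 7.29 against 6.80, 6.80 and 6.77, a log2 ratio of 0.41 (adjusted p = 0.00897) that was under the size threshold. Without adjustment it was the only member with a limma p below 0.05. The ratios ran from -0.23 for Pcna to 0.41 for Cdt1, and the median was 0.05.

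**Figure D2:**
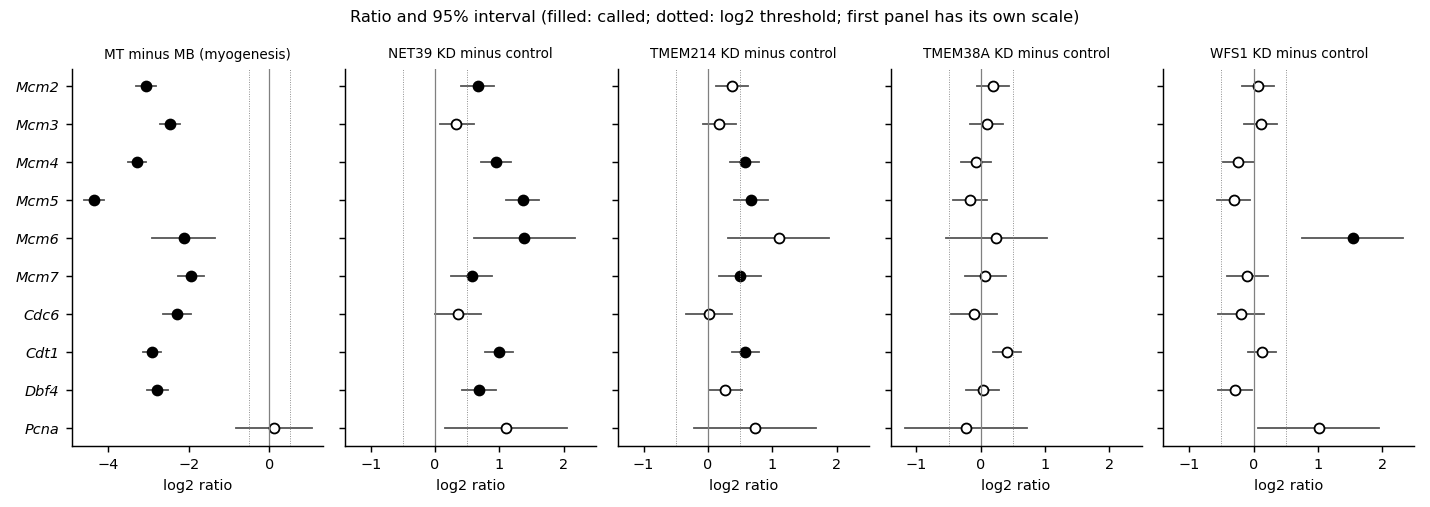
Log2 ratio (horizontal axis) of each gene (vertical axis) in myogenesis and in each KD line against the control shRNA line, with 95% intervals. Filled points are called and dotted lines mark the size threshold of 0.5. In the NET39 panel 7 points are filled and all 10 lie above 0, in the WFS1 panel Mcm6 alone is filled, and the wide intervals are those of Mcm6 and Pcna.

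The KD comparisons share the 3 control arrays, so the lines were also tested directly against each other. NET39 exceeded TMEM38A for 7 genes (all but Mcm2, Mcm3 and Cdc6; 9% of all genes called higher) and exceeded WFS1 for 7 genes (all but Mcm3, Mcm6 and Pcna; 6.03%). The count against TMEM38A was 4 without NET39 replicate 2, TMEM38A replicate 2 or TMEM38A replicate 3, and Cdc6 lost its call against WFS1 without NET39 replicate 2 or 3 or any 1 of the WFS1 arrays (0.53 to 0.57). Against TMEM214 the NET39 line was higher for Mcm5 alone, by 0.69 (adjusted p = 0.00104), where 2.22% of all genes were called higher. The TMEM214 line was in turn higher than WFS1 for Mcm4, Mcm5, Mcm7 and Dbf4 (5.27% of all genes called in this direction) and higher than TMEM38A for Mcm4 and Mcm5 (8.44%). Mcm6 was lower in TMEM38A than in WFS1, with a log2 ratio of -1.29 (adjusted p = 0.016, 6.69% of all genes called lower), and lost its call without TMEM38A replicate 1 (-1.23) or WFS1 replicate 1 (-1.25). It differed between NET39 and WFS1 by -0.14 (95% interval -0.93 to 0.64), whereas Mcm5 differed there by 1.67 (adjusted p = 8.28e-09). In the order of group means the NET39 line came directly after MBs and directly before the TMEM214 line for all but Mcm6, where WFS1 lay between MBs and NET39, and Pcna, and the step from NET39 to TMEM214 had an adjusted p below 0.05 for Mcm4, Mcm5, Cdt1 and Dbf4.

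The 10 genes did not vary as a single block across the 18 MT arrays. Among Mcm2, Mcm3, Mcm4, Mcm5, Mcm7, Cdc6, Cdt1 and Dbf4 the Pearson correlations of log2 levels ran from 0.436 to 0.928 over 28 pairs, with a median of 0.787. Mcm6 and Pcna correlated with each other (r = 0.849) and less with those 8 genes, from 0.226 to 0.565 over 16 pairs with a median of 0.391. These are descriptions, since arrays of a line share their treatment.

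**Figure D3:**
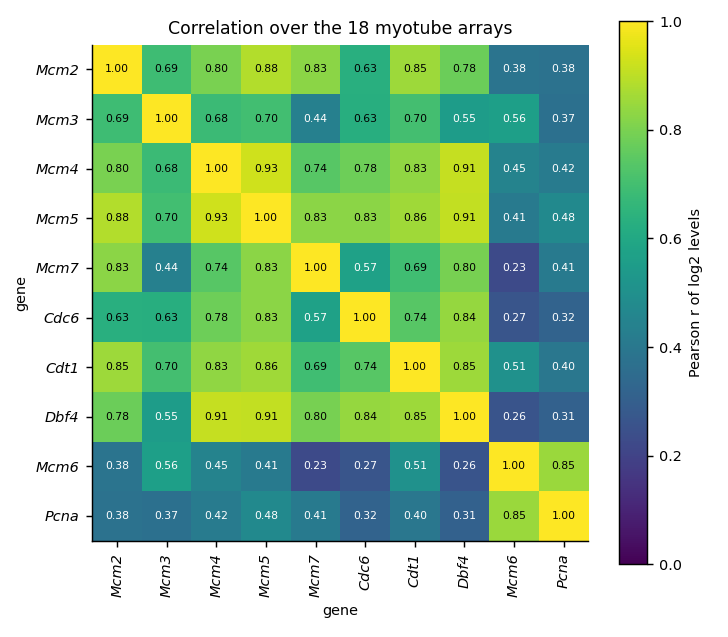
Pearson correlation of log2 levels over the 18 MT arrays for each pair of the 10 genes (both axes), printed in each cell and shown by colour from 0 to 1. The 8 genes in the upper left correlate at 0.436 to 0.928 and Mcm6 with Pcna at 0.849.

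Mcm6 was the only helicase subunit read by several probes above background on every array. All 3 such probes were lower in MTs than in MBs and higher in the NET39 and WFS1 lines than in the control, with different sizes. The brightest, ILMN_1217331, was the one used so far. ILMN_2803399 fell by 2.97 in myogenesis, and was higher by 0.97 in the NET39 line (adjusted p over probes = 0.00383) and by 0.96 in the WFS1 line (adjusted p = 0.00443). ILMN_1233857 fell by 3.33 in myogenesis, with MB levels of 10.30, 10.09 and 9.98 that set replicate 1 much less apart, and was higher by 0.78 in NET39 and by 0.84 in WFS1 (adjusted p = 3.88e-05 and 1.47e-05). With ILMN_1233857 the difference between NET39 and TMEM38A was 0.50 in place of 1.15 and was not called for size. The rise of Mcm6 in the WFS1 line was seen with each probe but was 1.54 on the brightest and 0.84 to 0.96 on the other probes. The remaining Mcm6 probe, ILMN_1236125, was above background on 9 arrays and was not called in myogenesis or in any of these lines.

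**Figure D4:**
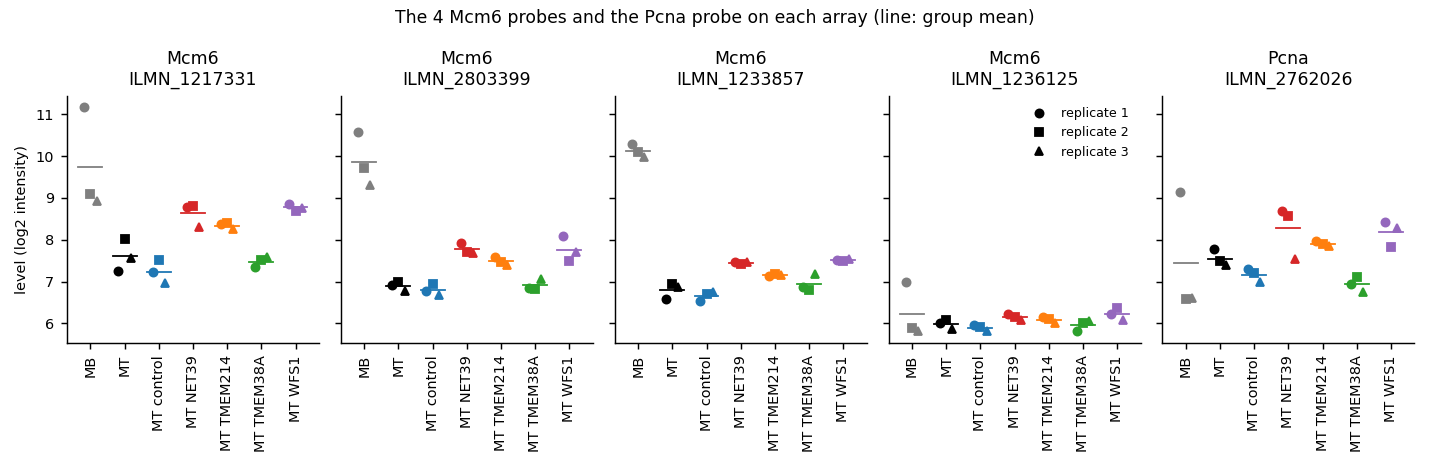
Level (log2 intensity, vertical axis) on each array of the 4 Mcm6 probes and of the Pcna probe in the 7 groups (horizontal axis). Points are arrays, with a shape for each replicate number, and lines are group means. On 3 Mcm6 probes and on Pcna the NET39, TMEM214 and WFS1 lines lie above the control line, while MB replicate 1 stands out on ILMN_1217331 and Pcna and little on ILMN_1233857.

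Other genes had a further probe that said less. The additional kept probes of Mcm4, Cdc6 and Dbf4 were above background on 3 to 4 arrays, and of these only the Dbf4 probes were called lower in myogenesis (-0.70 and -0.65). The other Mcm7 probe fell by 1.52 in myogenesis and was 0.32 higher in the NET39 line, which was not called (adjusted p = 0.25). Averaging all kept probes of a gene brought the number called in the NET39 line from 7 to 4. Mcm2, Mcm3, Mcm5, Cdt1 and Pcna each had a single probe.

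The rest of the replication machinery was described with lists taken from knowledge of the pathway. In myogenesis 11 of 11 genes that activate the helicase fell, such as Clspn (Claspin, a fork protection factor, log2 ratio -3.18), Tipin (-2.62), Gins1 (-2.32) and Gins2 (-2.31), the last a pair of subunits of the GINS complex that joins MCM at the fork. So did 19 of 23 polymerase, clamp loading and chromatin assembly genes, led by Chaf1b (-3.31), Chaf1a (-2.64) and Fen1 (-2.60), and 7 of 7 nucleotide supply genes, led by Tk1 (thymidine kinase, -4.28) and Tyms (thymidylate synthase, 8.03-fold lower). Of 12 origin recognition and licensing control genes 6 were lower, among them Mcm10 (-3.52), Cdc7 (the kinase partner of DBF4, -2.47) and Orc6 (-1.94). Of all genes 16.4% were called lower in myogenesis. The list medians were -1.94, -1.68, -2.05 and -0.39, beside -2.77 for the 6 helicase subunits.

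In the NET39 line the genes called higher were 2 of 12 origin and licensing control genes (Orc6 by 1.13 and Cdc7 by 0.57), 2 of 11 helicase activation genes (Clspn by 0.70 and Tipin by 0.60), 2 of 23 polymerase and clamp loading genes (Chaf1b by 0.72 and Rpa3, a subunit of the single-strand binding complex RPA, by 0.54) and 2 of 7 nucleotide supply genes (Tk1 by 2.3-fold and Tyms by 2.27-fold). Of all genes 4.96% were called higher in the NET39 line over the control. Against untransduced MTs Orc6 (0.33), Tyms (0.33) and Rpa3 (0.27) did not pass. The list medians were 0.12, 0.23, 0.21 and 0.37 on the log2 scale, against 0.81 for the 10 genes and -0.02 for all genes. The difference between lists was not tested. Of 18 E2F, pocket protein and G1/S cyclin genes none was called higher in the NET39 line and 2 were called lower, E2f6 by 0.78 and E2f2 by 0.53, neither of which was called against untransduced MTs (-0.28 and 0.23), where 3 of the 18 were called higher. Calls over all 13574 genes numbered 1270 in the NET39 line over the control, 53% of them higher and the rest lower. With untransduced MTs as reference this share was not computed. E2f1, an activating E2F that fell by 1.78 in myogenesis, was 0.48 higher in the NET39 line without passing (adjusted p = 0.0555), and -0.04 against untransduced MTs. In the TMEM214 line 1, 0, 0 and 3 genes of the first 4 lists were called higher, Orc6 (0.67), Tyms (0.67), Tk1 (0.56) and Rrm2 (0.55), of which only Rrm2 (0.60) was called against untransduced MTs. Of all genes 5.19% were called higher in the TMEM214 line over the control.

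**Figure D5:**
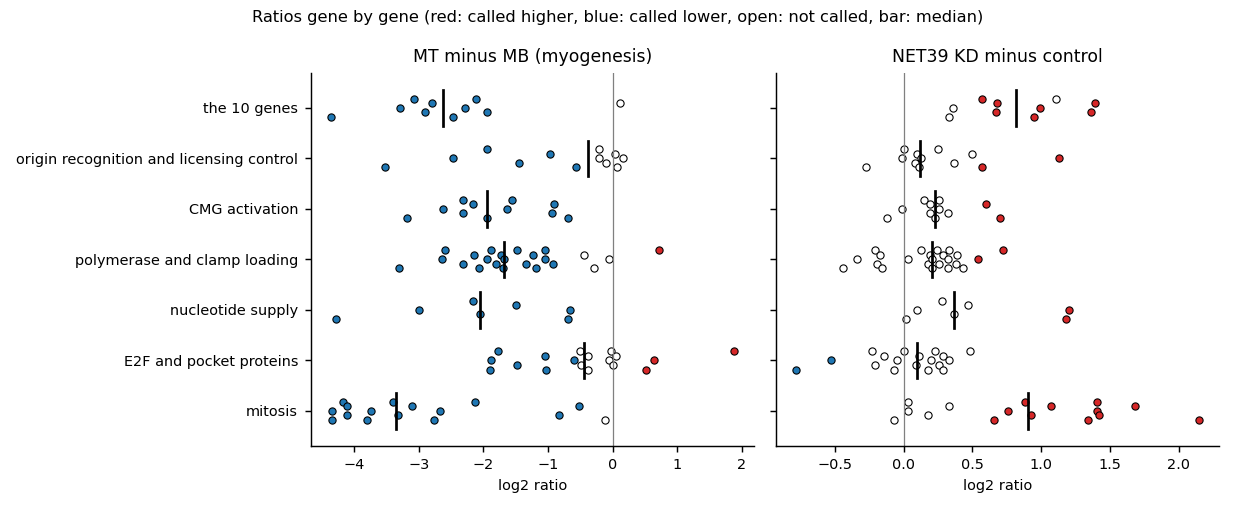
Log2 ratio (horizontal axis) of each tested gene in the 10 genes and in 6 lists of related genes (vertical axis), in myogenesis and in the NET39 line against the control. Red points are called higher, blue points called lower, open points not called, and bars are medians. The bars of the 10 genes and of mitosis stand at 0.81 and 0.90 in the NET39 panel, and those of the 5 other lists between 0.10 and 0.37.

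Genes of mitosis were called in the same directions. Of 16 tested, 15 fell in myogenesis, such as Cdc20 (log2 ratio -4.35) and Cenpa (the centromeric histone H3 variant, -4.34), and 11 were called higher in the NET39 line, led by Cenpa (2.15), Cdc20 (1.68) and Birc5 (survivin, 1.42). These 3 were also the ones called lower in the control line than in untransduced MTs (-1.02, -0.70 and -0.62), and against untransduced MTs their rises in the NET39 line were 1.13, 0.97 and 0.80, with 11 of the 16 again called higher. In the TMEM214 line 7 were called higher, 2 against untransduced MTs, and in the WFS1 and TMEM38A lines none was called against the control. Against untransduced MTs 3 of the 16 were called lower in the WFS1 line and 3 in the TMEM38A line. The shares over all genes were 16.4% called lower in myogenesis and 4.96% and 5.19% called higher in the NET39 and TMEM214 lines over the control. Between the control line and untransduced MTs 11.5% were called in either direction. Shares for the KD lines against untransduced MTs were not computed. The genes whose levels over the 18 MT arrays were closest to the mean of the 10 standardized members were Pbk (r = 0.97), H2ac22 (0.964), Aurkb (0.963), Bub1b (0.963) and Gtse1 (0.959), and Pbk, Aurkb, Bub1b and Gtse1 act in mitosis. Mcm6 taken alone was closest to Adgrg6 (r = 0.956), and Pcna to Septin7 (0.969), Abracl (0.955) and Hspa5 (BiP, a chaperone of the endoplasmic reticulum, 0.953). These neighbours of Mcm6 and Pcna were named after their values were seen.

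Some markers of undifferentiated cells were also called in the KD lines. Linear intensity of the 10 undifferentiated markers tested summed to 1680 to 1760 on the control arrays, 1940 to 2170 on untransduced MT arrays, 3020 to 3270 on the NET39 arrays, 2210 to 2400 on the TMEM214 arrays, 1720 to 1900 on the TMEM38A arrays, 1520 to 1610 on the WFS1 arrays and 3760 to 4570 on the MB arrays. In the NET39 line 4 of the 10 were called higher, among them Vcam1 (2.48) and Id3 (1.46), and in the TMEM214 line 2, Vcam1 (1.82) and Notch1 (0.63). Over all genes 1270 were called in either direction in the NET39 line (53% of them higher) and 1275 in the TMEM214 line (55.3% higher). The study reports weaker repression of Vcam1 in MTs after NET39 or WFS1 KD, and repression of Msc that depended on NET39 or Tmem38a. For these listed markers and the sum, an effect of the KD itself and the share of undifferentiated cells cannot be told apart. In the control line 4 of the 10 were called lower than in untransduced MTs, among them Vcam1 (-1.54) and Id3 (-0.62), and 1 higher. Of all genes 11.5% were called in either direction in that comparison. Against untransduced MTs Vcam1 was 0.94 and Id3 0.84 higher in the NET39 line, with 5 of the 10 called higher and 1 lower. Notch1 was called higher in the TMEM38A line (0.59), where no member was called, and did not fall in myogenesis (0.46, not called). Pax7, the defining marker of satellite cells, was not above background on any MB or NET39 array. The 13 myotube markers summed to 107000 to 121000 on the control arrays and 124000 to 130000 on untransduced MT arrays. The sums were 102000 to 105000 on the NET39 arrays and 87300 to 88500 on the TMEM214 arrays. On TMEM38A arrays they were 138000 to 146000 and on WFS1 arrays 127000 to 131000. Against the control, 3 were called lower and 1 higher in the NET39 line and 7 lower in the TMEM214 line. In TMEM38A 2 were called lower and 4 higher, and in WFS1 1 lower and 2 higher. Calls over the 13574 genes numbered 1316 in the TMEM38A line (41.9% of them higher) and 1126 in the WFS1 line (50.5% higher). Against untransduced MTs the calls were 5 lower and 1 higher in NET39 and 6 lower in TMEM214. They were 4 lower and 4 higher in TMEM38A and 3 lower and 3 higher in WFS1. No share of all genes was computed for the KD lines against untransduced MTs, here or for the undifferentiated markers. Of 5 fibroblast markers tested, Pdgfrb was called higher in the NET39 (0.95) and TMEM214 (1.02) lines and lower in the TMEM38A line (-0.87), and in the control line was lower than in untransduced MTs (-0.67). Against untransduced MTs Pdgfrb was not called in the NET39 line (0.27), where Pdgfra was called higher (0.55). With that reference 1 of the 5 was called higher in TMEM214, 1 lower in TMEM38A and none in WFS1. The sum of the 5 fibroblast markers was 421 to 431 on the control, 415 to 612 on untransduced MT, 625 to 634 on NET39 and 583 to 639 on TMEM214 arrays. The part of undifferentiated or other cells in the rise of the replication genes was not tested.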

How the data were processed

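Scanner signals of 21 Illumina mouse bead arrays, deposited by the authors as intensity without normalization, were the starting point. The matrix deposited by the authors, log2 values after quantile normalization, was used as an alternative. The submitters' processing notes name limma, with no version given in the sources used here. Signals were background-corrected (normexp, offset 50), quantile-normalized and taken to log2 with limma 3.58.1 in R 4.3.3. The background level of an array was set from the mode of its log2 signals and the SD of values under that mode, at a one-sided normal p of 0.05. Of 45281 probes 27840 lay above it on at least 3 arrays, and of the array's probes 34885 had 1 gene symbol, 18 several and 10378 none in the platform annotation. The brightest kept probe stood for each of 13574 genes.

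The linear model (lmFit, then eBayes) held the 7 group means over the 21 arrays, and p-values were adjusted by Benjamini-Hochberg across genes for each comparison. Adjusted p-values and SEs are from this model unless stated. The script was tested on simulated data. Whether arrays with the same replicate number deviate together from their group means was checked for pairing. Every r passed 0.1 in myogenesis (0.129 to 0.248), in NET39 (0.165 to 0.247) and in transduction (0.125 to 0.174), and not in TMEM38A, WFS1 or TMEM214. By this rule the numbers were taken to pair in the former 3 comparisons, although in myogenesis arrays with different numbers reached an r of 0.137. The main model does not hold the pairing, so its SEs and adjusted p-values ignore it. A replicate block was fitted as an alternative only.

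The 10 genes and all gene lists were chosen with earlier results of these data known. Named genes were the members, up to 4 genes of each list with the largest ratios in myogenesis or NET39, the 5 genes closest to the members' mean and the 4 targets. Alternatives were other offsets, scalings, filters, probe rules, array weights, reference groups, a replicate block and leaving out each array. Protein features had been planned and were not analysed here.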

Additional observations from a re-analysis of the deposited data

Results flagged for a closer look

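These differences between KD lines passed the direct test of one line against another (limma, adjusted over all genes), and all are log2 ratios. NET39 minus TMEM38A was 1.01 for Mcm4, 1.53 for Mcm5, 1.15 for Mcm6, 0.50 for Mcm7, 0.58 for Cdt1, 0.65 for Dbf4 and 1.34 for Pcna. NET39 minus WFS1 was 0.60 for Mcm2, 1.18 for Mcm4, 1.67 for Mcm5, 0.67 for Mcm7, 0.86 for Cdt1 and 0.98 for Dbf4. For Cdc6 it was 0.56 as fitted, and as Cdc6 was not above background on the WFS1 arrays, this is at least 1.42-fold (adjusted p = 0.0236). NET39 minus TMEM214 was 0.69 for Mcm5. TMEM38A minus WFS1 was -1.29 for Mcm6. TMEM38A minus TMEM214 was -0.64 for Mcm4 and -0.84 for Mcm5. WFS1 minus TMEM214 was -0.81 for Mcm4, -0.98 for Mcm5, -0.60 for Mcm7 and -0.56 for Dbf4. Single arrays decided several of these. In NET39 minus TMEM38A, Mcm6 (adjusted p = 0.0259) and Pcna (0.0313) lost their calls without NET39 replicate 1 (1.07 and 1.12) or 2 (1.07 and 1.19) and without TMEM38A replicate 1 (1.08 and 1.34), 2 (1.17 and 1.42) or 3 (adjusted p = 0.0535 and 0.0982). Read from the Mcm6 probe ILMN_1233857, the difference was 0.50 and was not called. Mcm7 lost its call there without NET39 replicate 1 (0.48) or 2 (0.47) and without TMEM38A replicate 2 (0.49) or 3 (0.48). Cdc6 in NET39 minus WFS1 lost its call without NET39 replicate 2 or 3 or any 1 of the WFS1 arrays (0.53 to 0.57), and Mcm6 in TMEM38A minus WFS1 without replicate 1 of either line (-1.23 and -1.25).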

How the results depend on the processing

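The count of 9 genes called in myogenesis, all of them lower, was 9 or 10 in either direction when single arrays were left out. The added call, without MB replicate 1, was Pcna, which was higher in MTs (0.96). Counts of members called that moved by over 1.5 times were as follows. NET39 went from 7 to 4 with the mean of kept probes and with untransduced MTs as reference, and ran from 5 to 8 without single arrays. TMEM214 went from 4 to 2 without background correction and with the deposited log2 values, and to 1 with untransduced MTs as reference. WFS1 went from 1 to 2 higher with array weights, with only the 2 groups compared and with MT arrays only, and to 2 with untransduced MTs as reference, of which Mcm6 was higher and Mcm5 lower. TMEM38A went from 0 to 1 with an offset of 16 and with cyclic loess, and transduction from 0 to 1 lower (offset of 16), 3 lower (cyclic loess) and 1 higher (median scaling). NET39 minus TMEM38A went from 7 to 3 with the deposited values and ran from 4 to 7 without single arrays. NET39 minus TMEM214 went from 1 to 2 with an offset of 16 and array weights. TMEM38A minus WFS1 went from 1 to 2 with an offset of 16, cyclic loess, a stricter filter, array weights, only the 2 groups compared and MT arrays only, to 0 with median scaling, and ran from 0 to 1 without single arrays. TMEM38A minus TMEM214 went from 2 to 6 (median scaling), 4 (array weights, only the 2 groups compared, MT arrays only) and 1 (mean of kept probes). WFS1 minus TMEM214 went from 4 to 2 (no background correction, deposited values) and 1 (mean of kept probes). The cause was not tested. The fit of MT arrays only and the other Mcm6 probes were added after seeing the data.

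With the replicate block TMEM38A minus WFS1 went from 1 to 2 called members, the rise of Mcm6 in TMEM214 was called (1.10, adjusted p = 0.0443), and no other call of a named member changed. Directions turned only for values that were not called. Pcna in myogenesis became -0.28 under median scaling and with control shRNA MTs as end point, and ran from -0.32 to 0.96 without single arrays. Cdc6 in TMEM214 became -0.01 with cyclic loess and -0.03 with the mean of kept probes, and ran from -0.05 to 0.09 without single arrays. Under median scaling the share of higher among all calls went from 47.1% to 17.7% in myogenesis, 53% to 66.6% in NET39, 50.5% to 9.14% in WFS1 and 55.3% to 67.8% in TMEM214. In transduction it went from 52% to 99.8% and in TMEM38A from 41.9% to 7.92%. Between lines it rose from 53.3% to 90.5% in NET39 minus TMEM38A and from 50.8% to 91.9% in NET39 minus WFS1. It fell from 44.6% to 9.7% in TMEM38A minus TMEM214 and from 48% to 8.12% in WFS1 minus TMEM214. It moved little in NET39 minus TMEM214 (42.9% to 44.2%) and TMEM38A minus WFS1 (45.9% to 45%). Levels near 6 are at background, which limits Mcm3 and Cdc6 in MTs.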
